A study of Mus musculus with 9 samples.

Results

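The antioxidant and glutathione genes were 35 mouse genes picked by symbol from the 30579 genes of the expression table. They comprise superoxide dismutases, catalase, glutathione peroxidases, peroxiredoxins, thioredoxins and their reductases, the enzymes that make, recycle and conjugate glutathione, the regulators Nfe2l2 and Keap1 with textbook targets, and 2 metallothioneins. RNA had been sequenced from cells labelled as mesenchymal stromal cells, the connective tissue cells that support blood formation in bone marrow, with 3 libraries in each of 3 groups. The groups were young control mice aged 3 months, aged control mice aged 18 months, and mice aged 18 months labelled as Thbs1 knockouts (Thbs1 encodes thrombospondin-1, a secreted matrix protein). The comparisons ask how age changes these cells and how the cells of aged mice without Thbs1 differ from those of aged controls.

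Mice of all groups had received an antibody against VE-cadherin, a protein of blood vessel cells, into the retro-orbital sinus shortly before death. Cells of the long bones were then sorted into TRIzol-LS for RNA, and libraries were prepared with SMART-Seq v4. The sources used here give no strain, sex, knockout allele or sorting gates. The labels do not say whether libraries within a group stem from different mice, so the p-values measure the spread between libraries, which may be technical.

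Cells convert superoxide to hydrogen peroxide with superoxide dismutases and remove the peroxide with catalase, glutathione peroxidases and peroxiredoxins. Glutathione peroxidases draw on glutathione, which glutathione reductase regenerates, whereas peroxiredoxins draw on thioredoxin, which thioredoxin reductases regenerate. The transcription factor Nrf2, encoded by Nfe2l2, is held at a low level by Keap1 and activates many of these genes through antioxidant response elements when electrophiles or oxidants modify Keap1. In marrow stroma these systems are studied because oxidants change how the stroma supports blood stem cells.

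Gpx7, the 1 gene of the set that passed the test in both main comparisons, is a glutathione peroxidase, and these enzymes are not alike at the active site. The following coding windows are shown because they separate Gpx7 and Gpx8 from the selenium enzymes. Each window runs 5′ to 3′ on the coding strand in build GRCm38 with GENCODE M21 gene models, starts at the conserved asparagine codon and has the catalytic codon in capitals.
Gpx1: aatgtcgcgtctctcTGAggcaccacg
Gpx3: aacgtagccagctacTGAggtctgaca
Gpx4: aacgtggcctcgcaaTGAggcaaaact
Gpx7: aacgtagctagcgaaTGTggcttcaca
Gpx8: aacgtggctagtgacTGCcgcttcaca
In Gpx1, Gpx3 and Gpx4 the capitals are TGA, which is read there as selenocysteine and not as a stop. In Gpx7 and Gpx8 they are TGT and TGC, both cysteine codons, and these enzymes reside in the endoplasmic reticulum. The Gpx1 window lies in exon 1 at chr9:108339436-108339462 on the plus strand, and the Gpx3 window in exon 2 at chr11:54907241-54907267 on the plus strand. The Gpx4 window lies in exon 3 at chr10:80054722-80054748 on the plus strand, the Gpx7 window in exon 2 at chr4:108403421-108403447 on the minus strand, and the Gpx8 window in exon 2 at chr13:113045652-113045678 on the minus strand.

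The metallothionein genes Mt1 and Mt2 lie next to each other on chromosome 8. In the deposited expression values both were lower in every aged than in every young control library and highest in 1 labelled-knockout library. The bases before their RefSeq start sites (build GRCm38.p6, plus strand) are shown for that reason, with 2 kinds of searched motif in capitals. The metal response element was searched as TGCACNC or TGCGCNC, the antioxidant response element as TGACNNNGC, each on both strands, and no match of one overlapped a match of the other in these windows.
Mt1, chr8:94178839-94179081: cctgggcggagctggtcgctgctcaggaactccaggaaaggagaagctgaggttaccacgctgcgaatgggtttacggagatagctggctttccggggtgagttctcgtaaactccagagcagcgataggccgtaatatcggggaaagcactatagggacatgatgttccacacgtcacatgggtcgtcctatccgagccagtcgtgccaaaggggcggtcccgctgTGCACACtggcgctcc
Mt2, chr8:94172368-94172617: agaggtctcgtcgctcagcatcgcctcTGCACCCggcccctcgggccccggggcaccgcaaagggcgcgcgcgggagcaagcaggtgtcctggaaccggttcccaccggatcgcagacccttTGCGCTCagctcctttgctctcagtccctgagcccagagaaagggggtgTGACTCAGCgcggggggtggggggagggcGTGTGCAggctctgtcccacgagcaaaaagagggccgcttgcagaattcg
The Mt1 window held 1 match to the metal response element, and the Mt2 window held 3 matches to it and 1 match to the antioxidant response element. Bases after these annotated starts were not searched, and elements there would be missed. The counts therefore do not compare the whole promoters of the 2 genes. RefSeq gave promoter windows for 29 of the 35 genes, 36 windows in all, taken over the 250 bases before each start. Of these, 9 (25.0%) held the metal motif, against 21.4% of all 32851 windows, and 7 (19.4%) held the antioxidant motif, against 10.2%. The 7 genes with the antioxidant motif were Gclm, Mgst1, Mt2, Nfe2l2, Prdx1, Sod1 and Txnrd1. A match describes these letters only, and no binding was measured.

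Expression values are FPKM, fragments per kilobase of transcript scaled to each library's own total, so they compare genes per unit of length. Changes between groups are log2 fold changes of FPKM + 1 from limma, and their p-values carry a Benjamini-Hochberg adjustment across the 11988 genes tested. A gene passed at an adjusted p under 0.05. Of the 35 genes, 34 reached 1 FPKM in 3 or more libraries and were tested. The exception was Slc7a11, the cystine importer, which lay between 0.01 and 0.09 FPKM in the 9 libraries, an estimated 2.53 to 32.5 reads, and had no test.

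Several facts of the libraries touch every comparison. The low-value steps of FPKM gave an estimated 17.8 to 27.5 M reads per library (M, mega). Thbs1 itself was 75.0, 73.1 and 58.03 FPKM in the 3 young libraries, 35.6, 41.9 and 36.9 in those of aged controls, and 24.3, 44.6 and 37.1 in those labelled knockout. The aged controls and the labelled-knockout libraries overlapped (limma log2 fold change -0.15, SE 0.256, adjusted p = 0.801), so RNA did not separate these labels and the last group is called the labelled-knockout libraries throughout. The sum of 11 stromal markers was 10400 to 10600 FPKM in the young, 4530 to 6550 in the aged and 8460 to 10600 in the labelled-knockout libraries, whereas endothelial and T or NK cell markers summed to at most 13.2 and 25.8 FPKM in any library. The sum of 11 pan-leukocyte markers was 104 to 202, 291 to 2500 and 98.5 to 285 FPKM in the same order of groups, and immunoglobulin genes took 0.0224% to 0.861%, 17.3% to 70.7% and 0.925% to 48.8% of all FPKM. Ptprc, the leukocyte surface protein CD45, was at most 0.06, 4.14 and 0.15 FPKM in these groups, and Cdh5, which encodes VE-cadherin, was at most 0.11 FPKM in 8 libraries and 1.99 in labelled-knockout replicate 2. That library stood apart, with 13503 genes above 0 FPKM against 16557 to 18382 in the others and a correlation of 0.738 to 0.811 with them. In bulk RNA, fewer cells of a type and less RNA per cell cannot be told apart.

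In the young libraries the 35 genes summed to 8928, 9356 and 9920 FPKM. Gpx3, the secreted glutathione peroxidase of extracellular fluid, made up 54.6%, 58.7% and 43.2% of that sum and was the most abundant of the genes in each of the 3. Mt1 (972 ± 209 FPKM, SD, n = 3), Gpx8 (637 ± 184) and Mt2 (619 ± 168) came next by group mean, and these 3 overlapped one another. Mgst1, Prdx1, Gstm1, Gpx1 and Txn1 had means of 329, 237, 193, 172 and 169 FPKM. At the low end, the enzymes that build glutathione, Gclc, Gclm and Gss, had means of 6.02, 6.31 and 2.37 FPKM, below Gsr, which recycles it, at 132 ± 9.83. Mitochondrial Txnrd2 had a mean of 3.20 FPKM, and Keap1 was at 10.1 against 34.6 for Nfe2l2.

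Between aged and young controls, Gpx7 and Nqo1 passed lower, and none of the 34 tested genes passed higher. The sum of the 35 genes was 4789, 7016 and 4594 FPKM in the aged controls, each below the lowest young library. The 2 of 34 genes that passed lower are 5.88%, against 4.04% of all tested genes that passed in either direction, 1.47% lower and 2.57% higher. The fold change was negative for 29 genes and positive for 5 (9 and 0 of them at an unadjusted p under 0.05, which 15.7% and 5.96% of all tested genes had in the same directions), with a median of -0.42 against -0.28 for all tested genes. For 19 of the 34 (55.9%) every aged library lay below every young one, against 37.4% of all tested genes, and no gene had the reverse order, against 7.02%. These counts depended on the scaling: when each library was divided by its median ratio to the others the median of the 34 was -0.06 against 0.02 for all genes, and when libraries were instead set equal over the stromal markers, an alternative chosen after seeing the data, the median of the 34 turned to 0.39 against 0.41 for all genes. The stromal markers moved with age themselves: all 11 had negative fold changes, and 3 (Adipoq, Col1a1 and Col1a2) passed lower. In that last scaling, which rests on these markers, 26 of the 34 were positive and none passed. For 7 of the 34 (Cat, Gclc, Gsr, Gss, Keap1, Prdx6 and Srxn1) every aged library then lay above every young one and for 1 (Gpx7) below, against 42.7% and 3.29% of all tested genes. The 8 genes that stayed negative there were Gpx3, Gpx7, Gpx8, Mgst1, Mt1, Mt2, Nqo1 and Txnrd1. Leukocyte and immunoglobulin RNA moved with this comparison (8 of 10 tested pan-leukocyte markers passed higher). So did cartilage markers, of which 0 of 7 passed but all 7 were lower in every aged than in every young library (sums of 12.2 to 15.4 against 107 to 264 FPKM), and early response genes, of which 2 of 20, Atf3 and Socs3, passed lower. The part of these RNAs in the result was not tested.

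**Figure D1:**
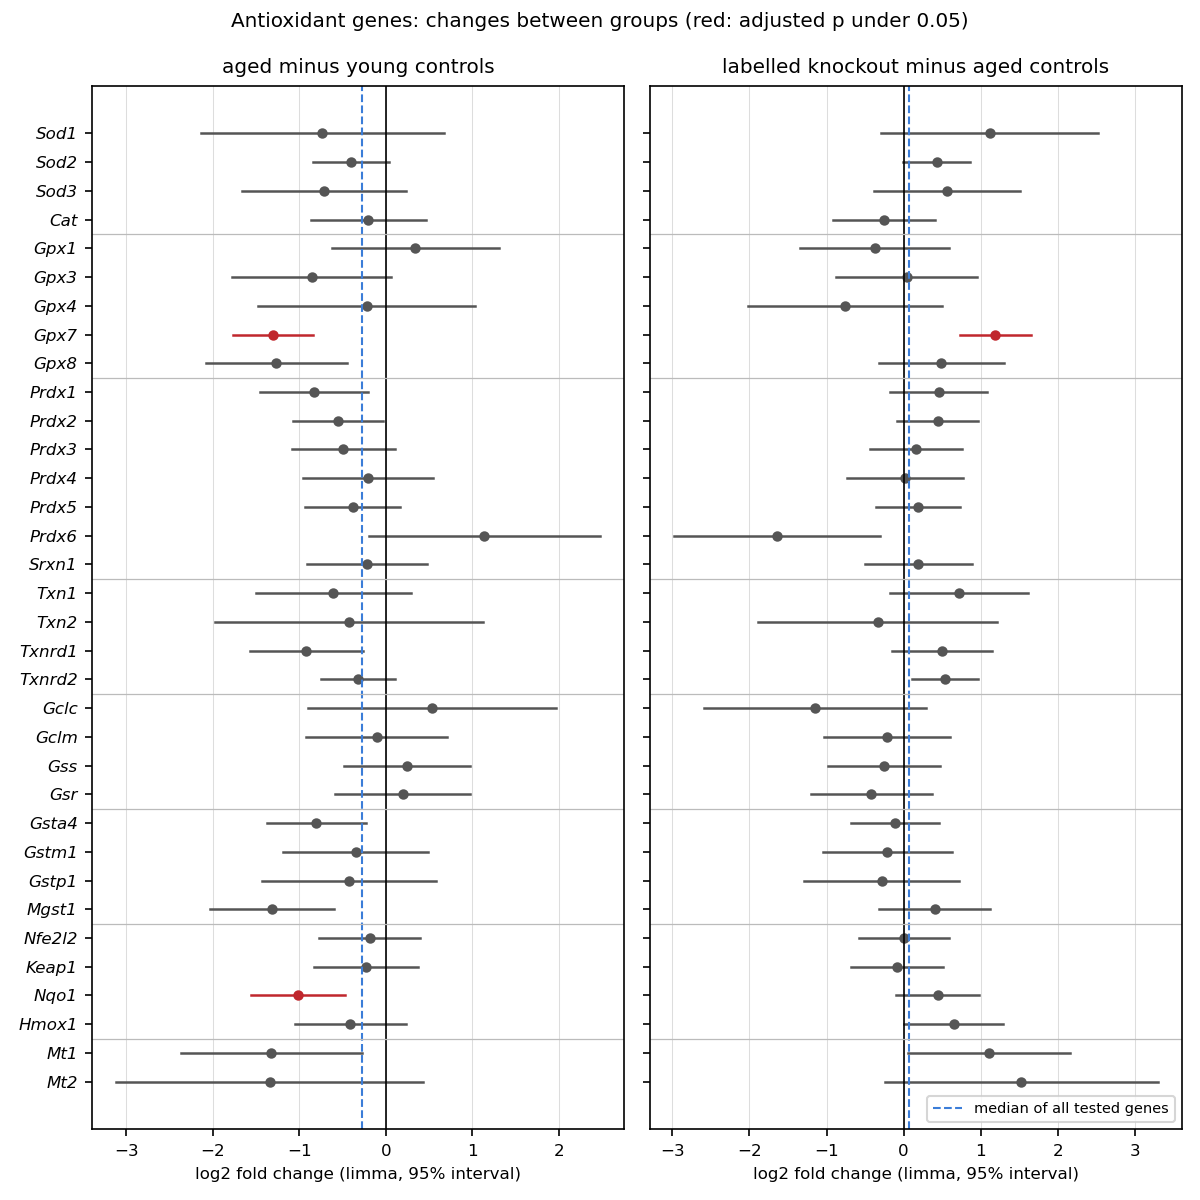
Log2 fold change (x axis, limma on FPKM + 1) with its 95% interval for the 34 tested antioxidant genes (rows, grouped by role), aged minus young controls on the left and labelled knockout minus aged controls on the right, 3 libraries a group. The 3 red points, Gpx7 and Nqo1 on the left and Gpx7 on the right, are those with an adjusted p under 0.05, and the dashed line is the median of all tested genes, -0.28 and 0.07; most points on the left turn to the other side of 0 when libraries are set equal over the stromal markers.

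Gpx7, an endoplasmic reticulum peroxidase that oxidizes folding enzymes, had the smallest adjusted p of the 34 genes. It is annotated as ENSMUSG00000028597.11 at chr4:108400390-108406961 on the minus strand (GRCm38). Its level was 39.6, 41.99 and 47.2 FPKM in the young, 16.4, 17.8 and 16.2 in the aged, and 45.9, 32.2 and 41.9 in the labelled-knockout libraries. The aged controls were low as a tight group and overlapped neither of the other groups. From young (42.9 ± 3.86 FPKM, SD, n = 3) to aged (16.8 ± 0.826) it fell by 1.30 on the log2 scale (SE 0.205, limma adjusted p = 0.0154), a ratio of 0.392 between the means. The call was kept in 16 of 22 alternative analyses, over which the fold change ran from -1.35 to -0.48. It was lost without young replicate 1, 2 or 3 (adjusted p = 0.083, 0.0843 and 0.0808), without aged replicate 1 (0.13), with the replicate block (0.059), and with libraries set equal over the stromal markers, where the fold change was -0.48 (adjusted p = 0.295).

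In the labelled-knockout libraries Gpx7 rose against aged controls by 1.19 on the log2 scale (SE 0.205, limma adjusted p = 0.0239), to 39.96 ± 7.03 FPKM (SD, n = 3). It was the single one of the 34 genes that passed (2.94% in this direction, against 1.52% of all tested genes), and none passed lower, against 1.96% (3.48% of all genes in either direction). At an unadjusted p under 0.05, 4 of the 34 were higher and 1 lower, against 12.5% and 7.3% of all tested genes. Against young controls its fold change was -0.11 with a 95% interval from -0.57 to 0.35 (adjusted p = 0.858). Without labelled-knockout replicate 2 the rise was 1.33 (adjusted p = 0.00215). The call was kept in 13 of 22 alternatives (range 0.71 to 1.34). It was lost without young replicate 1 or 2 (adjusted p = 0.0551 and 0.0578), aged replicate 1 or 2 (0.176 and 0.0809) and labelled-knockout replicate 1 or 3 (0.0757 and 0.0657), with the replicate block (0.0768), in the fit of these 2 groups alone (0.123), and with libraries set equal over the stromal markers, where it was 0.71 (0.164). Pan-leukocyte markers (7 of 10 tested passed lower) and cartilage markers (6 of 7 passed higher, summing to 141 to 2700 FPKM against 12.2 to 15.4 in aged controls) moved with this comparison. So did early response genes, of which 3 of 20 (Atf3, Klf4 and Socs3) passed higher, and stromal markers, of which 2 of 11 (Col1a1 and Col1a2) did. The part of these RNAs in the comparison was not tested.

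Gpx8, the other cysteine peroxidase of the endoplasmic reticulum, was far more abundant. It stood at 489, 580 and 844 FPKM in the young, 226, 323 and 235 in the aged, and 467, 219 and 462 in the labelled-knockout libraries. On the FPKM scale every aged library was below every young one, while labelled-knockout replicate 2 lay below all aged controls and replicates 1 and 3 above them. With libraries set equal over the stromal markers, young (353 to 702) and aged (308 to 392.5) libraries overlapped. The fold change from young to aged was -1.26 (SE 0.36, limma adjusted p = 0.0873) and that from aged to labelled knockout 0.49 (adjusted p = 0.494), so neither passed. Without labelled-knockout replicate 2, which is in neither group of the first comparison but enters its estimate of spread and the filter on genes, the age difference passed (adjusted p = 0.0128).

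The selenium peroxidases had wider spreads. Gpx3 was 4878, 5490 and 4288 FPKM in the young, 2197, 4056 and 2172 in the aged, and 4299, 1741 and 2816 in the labelled-knockout libraries. The highest aged library reached close to the lowest young one, and the labelled-knockout libraries ran from below all aged controls to just above the lowest young library. Its fold changes were -0.86 (SE 0.406, limma adjusted p = 0.26) and 0.04 (adjusted p = 0.969). Gpx1, the cytosolic enzyme, was 307, 304 and 103 FPKM in the aged controls against 139 to 231 in the young and 141 to 195 in the labelled knockouts, so 2 aged libraries lay above and 1 below all others. Gpx4, which reduces lipid peroxides in membranes, lay between 73.0 and 122 FPKM in 8 libraries and at 16.2 in labelled-knockout replicate 2. Of all stretches of 50 bases in Gpx4 transcripts, 34.7% also occur in other genes, mostly the pseudogene Gpx4-ps2, so its value is uncertain. Gpx1 and Gpx4 were picked out after their values had been seen.

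**Figure D2:**
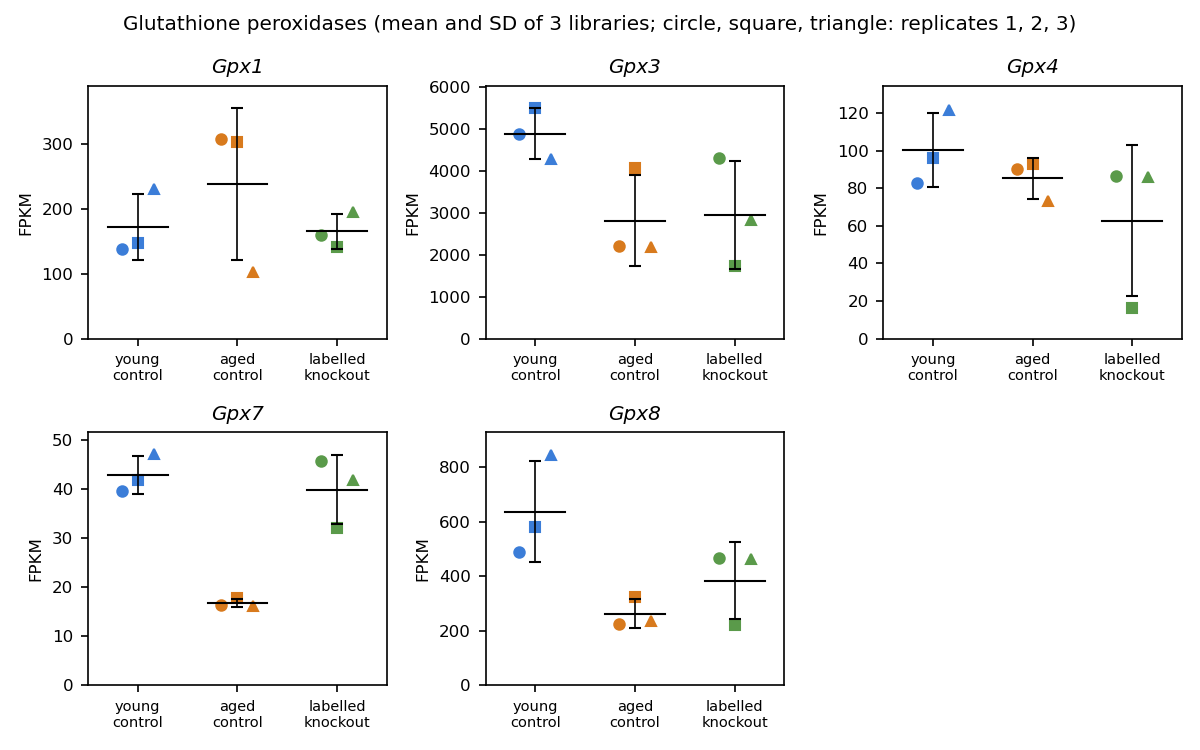
FPKM (y axis, from 0) of 5 glutathione peroxidases in each of the 9 libraries, by group, with mean and SD of 3 libraries. Gpx7 is low in all 3 aged controls (16.2 to 17.8) and at 32.2 or more in the other 6 libraries, whereas Gpx8 and Gpx3 in labelled-knockout replicate 2 (219 and 1741) lie below every aged control.

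Nqo1, a quinone reductase and textbook Nrf2 target, was the second gene that passed with age. It is annotated as ENSMUSG00000003849.8 at chr8:107388225-107403206 on the minus strand (GRCm38). Its level was 12.8, 18.7 and 16.3 FPKM in the young, 6.80, 8.36 and 6.77 in the aged, and 11.9, 7.75 and 11.6 in the labelled-knockout libraries. Aged and young libraries did not overlap on the FPKM scale, and labelled-knockout replicate 2 lay among the aged controls. With libraries set equal over the stromal markers, aged and young libraries overlapped. Nqo1 fell by 1.02 on the log2 scale from young (15.9 ± 2.97 FPKM, SD, n = 3) to aged (7.31 ± 0.91), with an SE of 0.239 and a limma adjusted p of 0.04997, just inside the threshold. The call held in 7 of 22 alternatives and was lost on leaving out any 1 library other than labelled-knockout replicate 2, without which the adjusted p was 0.00804. It was also lost with median-ratio scaling (-0.68, adjusted p = 0.0815) and with libraries set equal over the stromal markers (-0.24, adjusted p = 0.611). From aged to labelled knockout the fold change was 0.44 (SE 0.239, adjusted p = 0.342).

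Neither regulator passed in any comparison. Nfe2l2 was 34.3, 33.02 and 36.3 FPKM in the young, 30.0, 43.0 and 21.3 in the aged, and 30.4, 32.6 and 28.3 in the labelled-knockout libraries. The aged controls spanned both other groups, the labelled-knockout libraries lay just below the young ones, and the fold changes were -0.19 and 0.01 (limma adjusted p = 0.709 and 0.992). Keap1 was 10.5, 10.7 and 9.09 FPKM in the young, 9.25, 9.83 and 6.62 in the aged, and 10.7, 5.42 and 8.37 in the labelled knockouts, with all groups overlapping and fold changes of -0.23 and -0.09 (adjusted p = 0.655 and 0.892). With libraries set equal over the stromal markers, Keap1 was 7.56 to 7.73 in the young and 8.68 to 16.06 in the aged libraries. Every aged library then lay above every young one, as for 42.7% of all tested genes. The 95% interval of the age difference ran from -0.77 to 0.39 for Nfe2l2 and from -0.83 to 0.37 for Keap1. RNA levels do not measure the Nrf2 protein, which Keap1 controls.

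Hmox1, which breaks down haem, was 18.4, 20.0 and 25.1 FPKM in the young, 15.9, 18.3 and 12.9 in the aged, and 36.8, 18.2 and 23.0 in the labelled-knockout libraries. The young libraries lay above the aged ones narrowly on the FPKM scale (18.39 against 18.33 at the nearest pair), and labelled-knockout replicate 1 was the highest of the 9. Its fold changes were -0.41 (limma adjusted p = 0.435) and 0.65 (adjusted p = 0.246), and without labelled-knockout replicate 2 the second became 0.86 (adjusted p = 0.0465). Srxn1, which repairs overoxidized peroxiredoxins, ranged from 7.39 to 14.3 FPKM with all groups overlapping. With libraries set equal over the stromal markers, Srxn1 was 8.175 to 9.39 in the young and 9.69 to 16.04 in the aged libraries. That order held for 42.7% of all tested genes.

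**Figure D3:**
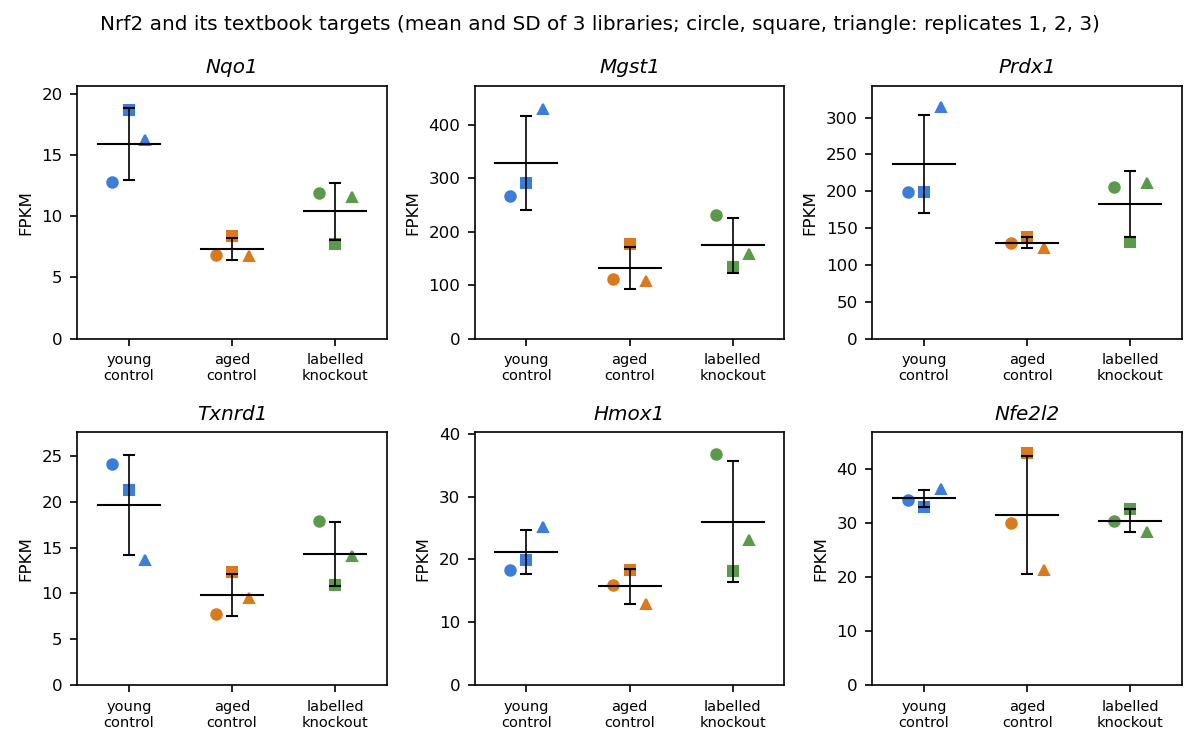
FPKM (y axis, from 0) of Nfe2l2 and 5 textbook Nrf2 targets in each of the 9 libraries, by group, with mean and SD of 3 libraries. Nqo1, Mgst1, Prdx1 and Txnrd1 are lower in every aged control than in every young one on this scale, and so, narrowly, is Hmox1. With libraries set equal over the stromal markers none of these orders held, and the Prdx1 fold change was 0.02. The aged values of Nfe2l2 (21.3 to 43.0) span the young ones. Gclc, Gclm, Gsr and Srxn1, further textbook targets in the set, are not shown. Their groups overlapped on this scale, with age differences of 0.53, -0.10, 0.19 and -0.22. Whether the targets moved as a class was not tested.

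The glutathione transferases of the set, which attach glutathione to reactive molecules, had no gene that passed. Mgst1, the membrane-bound enzyme, was 266, 291 and 429 FPKM in the young, 111, 177 and 108 in the aged, and 232, 134 and 158 in the labelled-knockout libraries. Every young library was above all 6 of the others on the FPKM scale, though not with libraries set equal over the stromal markers. The Mgst1 age difference of -1.32 (SE 0.318) had a limma adjusted p of 0.0533, just outside the threshold. Gsta4, which acts on lipid aldehydes, was 44.6, 55.8 and 77.5 FPKM in the young, 28.5, 38.5 and 31.9 in the aged, and 26.4, 29.4 and 35.4 in the labelled-knockout libraries. Here too all 6 libraries from 18 months lay below all 3 from 3 months on the FPKM scale (not with libraries set equal over the stromal markers, where the age difference was 0.03), with fold changes of -0.80 (adjusted p = 0.114) for aged and -0.92 (adjusted p = 0.392) for labelled-knockout against young libraries. Without labelled-knockout replicate 2 the age differences of Mgst1 and Gsta4 passed (adjusted p = 0.0153 and 0.0392). Gstm1 and Gstp1 ranged from 81.8 to 232 and from 26.9 to 135 FPKM, and their groups overlapped. Gstp1 shares 33.7% of its stretches of 50 bases with other genes, mostly Gstp2, and Gstm1 shares 18.9%, so both are uncertain.

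The genes of glutathione synthesis and recycling had overlapping groups on the FPKM scale, and none passed. Gclc, the catalytic subunit of the rate-limiting enzyme, had a positive fold change with age (0.53, limma adjusted p = 0.663), as did Gss (0.25, adjusted p = 0.692) and Gsr (0.19, adjusted p = 0.78). Gclm, the modifier subunit, was at -0.10 (adjusted p = 0.899). All 4 were negative from aged to labelled knockout, between -1.15 for Gclc and -0.22 for Gclm, with adjusted p from 0.353 to 0.788. Labelled-knockout replicate 2 held the lowest Gclc value, 0.38 FPKM against 4.57 to 12.3 in the other libraries. Without it the Gclc fold change was -0.30 and that of Gclm 0.19. The overlap was that of the FPKM scale: with libraries set equal over the stromal markers, Gclc, Gss and Gsr were higher in every aged than in every young library (1.28, 0.86 and 1.04, adjusted p = 0.242, 0.189 and 0.116), and Gclc and Gsr were lower in every labelled-knockout library than in every aged one.

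Among the 2-cysteine peroxiredoxins, Prdx1, Prdx2 and Prdx3 lay lower in aged than in young controls without passing, and they did so on the FPKM scale but not with libraries set equal over the stromal markers (0.02, 0.28 and 0.34). Prdx1, the abundant cytosolic enzyme, was 199, 199 and 314 FPKM in the young, 130, 138 and 123 in the aged, and 205, 132 and 211 in the labelled-knockout libraries. Young and aged libraries did not overlap, and the labelled-knockout ones reached into both ranges. The fold changes were -0.83 (SE 0.277, limma adjusted p = 0.128) and 0.45 (adjusted p = 0.4), and the first passed without labelled-knockout replicate 2 (adjusted p = 0.028). Prdx2, its cytosolic relative, was 43.0, 41.6 and 64.3 FPKM in the young, 38.6, 30.3 and 30.6 in the aged, and 41.6, 46.5 and 47.2 in the labelled-knockout libraries, so the aged controls lay below both other groups. Mitochondrial Prdx3 was 43.3, 46.0 and 64.3, then 42.2, 35.8 and 29.9, then 42.6, 30.4 and 49.0 FPKM in the same order, with overlap of the last 2 groups. The age differences of Prdx2 and Prdx3 were -0.55 and -0.49 (adjusted p = 0.21 and 0.316). Prdx4 of the endoplasmic reticulum and Prdx5 ranged from 82.0 to 202 and from 60.3 to 122 FPKM with overlapping groups.

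Prdx6, the 1-cysteine peroxiredoxin, had the opposite order and was picked out after its values had been seen. It was 26.3, 26.8 and 32.6 FPKM in the young, 93.8, 116 and 23.5 in the aged, and 27.9, 9.54 and 28.5 in the labelled-knockout libraries. Aged replicates 1 and 2 were the highest of all, and aged replicate 3 was below every young library. With libraries set equal over the stromal markers that library turned to the other side (30.8 against 18.95 to 27.1 in the young), so that all aged lay above all young libraries (1.97, adjusted p = 0.0965), as for 42.7% of all tested genes. The age difference was 1.14 (SE 0.594, limma adjusted p = 0.304) and the labelled-knockout difference -1.64 (adjusted p = 0.17). Without aged replicate 3 the latter was -2.34 and passed (adjusted p = 0.0302). Aged replicates 1 and 2 also held the highest pan-leukocyte marker sums, 1840 and 2500 FPKM against 291 in aged replicate 3, and the part of leukocyte RNA in Prdx6 was not tested.

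The thioredoxin system carries electrons from NADPH to the peroxiredoxins. Txnrd1, the cytosolic reductase, was 24.2, 21.3 and 13.6 FPKM in the young, 7.72, 12.3 and 9.49 in the aged, and 17.9, 10.9 and 14.1 in the labelled-knockout libraries. Young and aged libraries did not overlap on the FPKM scale, but did with libraries set equal over the stromal markers. The age difference was -0.92 (SE 0.289, limma adjusted p = 0.112, or 0.0309 without labelled-knockout replicate 2). Txnrd2, the mitochondrial reductase, was 2.82, 3.53 and 3.26 FPKM in the young, 2.55, 2.30 and 2.23 in the aged, and 3.73, 4.17 and 3.69 in the labelled-knockout libraries. Its 3 groups did not overlap at all on the FPKM scale, with the aged controls lowest and the labelled-knockout libraries highest. Yet the differences of -0.32 and 0.53 had limma adjusted p of 0.361 and 0.162. It was 1 of 5 genes (with Sod2, Gpx7, Prdx2 and Mt1) for which every labelled-knockout library lay above every aged control, 14.7% of the 34 against 16.6% of all tested genes, a share near the background. None of the 34 had the reverse order on the FPKM scale, against 6.54%. With libraries set equal over the stromal markers, 1 of the 34 (Gpx7) was higher in every labelled-knockout than in every aged library. In that scaling 4 (Gpx4, Gclc, Gsr and Gsta4) were lower. The shares of all tested genes were 3.77% and 16.8%.

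For both thioredoxins labelled-knockout replicate 2 stood apart, in opposite directions. Cytosolic Txn1 was 138, 139 and 231 FPKM in the young, 108, 120 and 96.2 in the aged, and 113, 335 and 147 in the labelled-knockout libraries. Mitochondrial Txn2 was 16.5, 15.9 and 21.4, then 14.3, 13.6 and 11.3, then 21.0, 1.76 and 21.4 FPKM. In that 1 library Txn1 was the highest and Txn2 the lowest of all 9. Without it the difference of labelled knockout from aged control went from 0.72 to 0.26 for Txn1 and from -0.34 to 0.67 for Txn2, which then passed (adjusted p = 0.0454).

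Among the superoxide dismutases, Sod1, the cytosolic copper and zinc enzyme, showed the same kind of library. It was 78.9, 72.0 and 134 FPKM in the young, 65.1, 56.1 and 44.4 in the aged, and 62.7, 393 and 69.2 in the labelled-knockout libraries. Labelled-knockout replicate 2 was far above the other 8, replicate 1 lay within the aged controls and replicate 3 just above them. The difference from aged control was 1.12 (SE 0.625, limma adjusted p = 0.355), or 0.27 without that library. Sod2, the manganese enzyme of mitochondria, shares 21.0% of its stretches of 50 bases with other genes and is uncertain in level. It was 31.5, 29.5 and 34.8 FPKM in the young, 22.8, 25.7 and 23.3 in the aged, and 37.8, 29.4 and 30.8 in the labelled-knockout libraries. The aged controls lay below all other libraries, though the differences of -0.40 and 0.43 had adjusted p of 0.272 and 0.263.

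Sod3, the secreted dismutase, was 36.4, 53.5 and 45.1 FPKM in the young, 20.7, 32.01 and 28.9 in the aged, and 36.9, 21.6 and 79.8 in the labelled-knockout libraries. Young and aged libraries did not overlap (-0.71, limma adjusted p = 0.362), and the labelled-knockout libraries spread over both. The age differences of Sod1, Sod2 and Sod3 turned positive, 0.11, 0.42 and 0.11, when libraries were set equal over the stromal markers. Catalase (Cat) was between 22.6 and 51.8 FPKM, with its lowest value again in labelled-knockout replicate 2.

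The metallothioneins, small metal-binding proteins that also scavenge radicals, had large differences and large errors. Mt1 was 998, 752 and 1168 FPKM in the young, 319, 369 and 473 in the aged, and 515, 1841 and 586 in the labelled-knockout libraries. Mt2 was 637, 443 and 777, then 207, 189 and 340, then 303, 3150 and 335 FPKM. On the FPKM scale every aged library was below every young one for both genes, and labelled-knockout replicate 2 was the highest of the 9. Replicates 1 and 3 of that group lay below all young libraries on this scale. With libraries set equal over the stromal markers, young and aged libraries overlapped. Mt1 was then 545 to 971 in the young and 414 to 621 in the aged, and Mt2 321 to 646 and 212 to 446. The age differences of -1.32 (SE 0.466) and -1.34 (SE 0.786) had limma adjusted p of 0.143 and 0.357, and those from aged to labelled knockout, 1.11 and 1.53, had 0.23 and 0.319. Without labelled-knockout replicate 2 the age differences passed (adjusted p = 0.0105 and 0.0161) and the others became 0.52 and 0.43. Mt2 overlaps an antisense gene, Gm45774, in its exons, and the labels do not say whether counting used the strand.

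**Figure D4:**
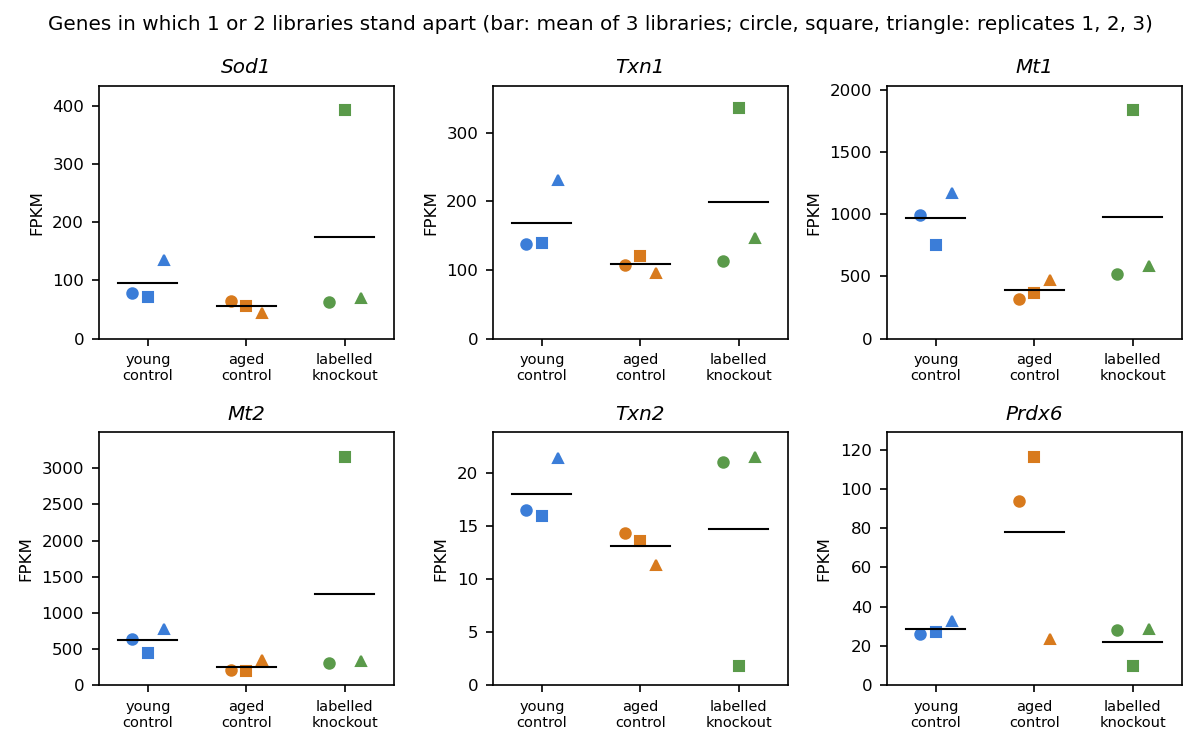
FPKM (y axis, from 0) of 6 genes in each of the 9 libraries, by group, with the group mean as a bar. Labelled-knockout replicate 2 is the highest library for Sod1 (393), Txn1 (335), Mt1 (1841) and Mt2 (3150) and the lowest for Txn2 (1.76) and Prdx6 (9.54), and aged replicates 1 and 2 are the highest for Prdx6 (93.8 and 116).

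Across the 35 genes, labelled-knockout replicate 2 held the lowest value of the 9 libraries for 12 genes and the highest for 5, aged replicate 3 the lowest for 15, and young replicate 3 the highest for 12. Gpx3 made up 19.7% of the summed FPKM of the 35 genes in labelled-knockout replicate 2, against 43.2% to 58.7% in the others. When that library was left out, 9 of the 34 passed lower with age (Gpx7, Gpx8, Gsta4, Mgst1, Mt1, Mt2, Nqo1, Prdx1 and Txnrd1), and so did 17.9% of all tested genes, while none passed higher, against 5.17%. In the comparison of labelled-knockout with aged libraries, 3 then passed higher (Gpx7, Hmox1 and Txn2), against 11.5% of all tested genes, and none lower, against 4.48%.

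**Figure D5:**
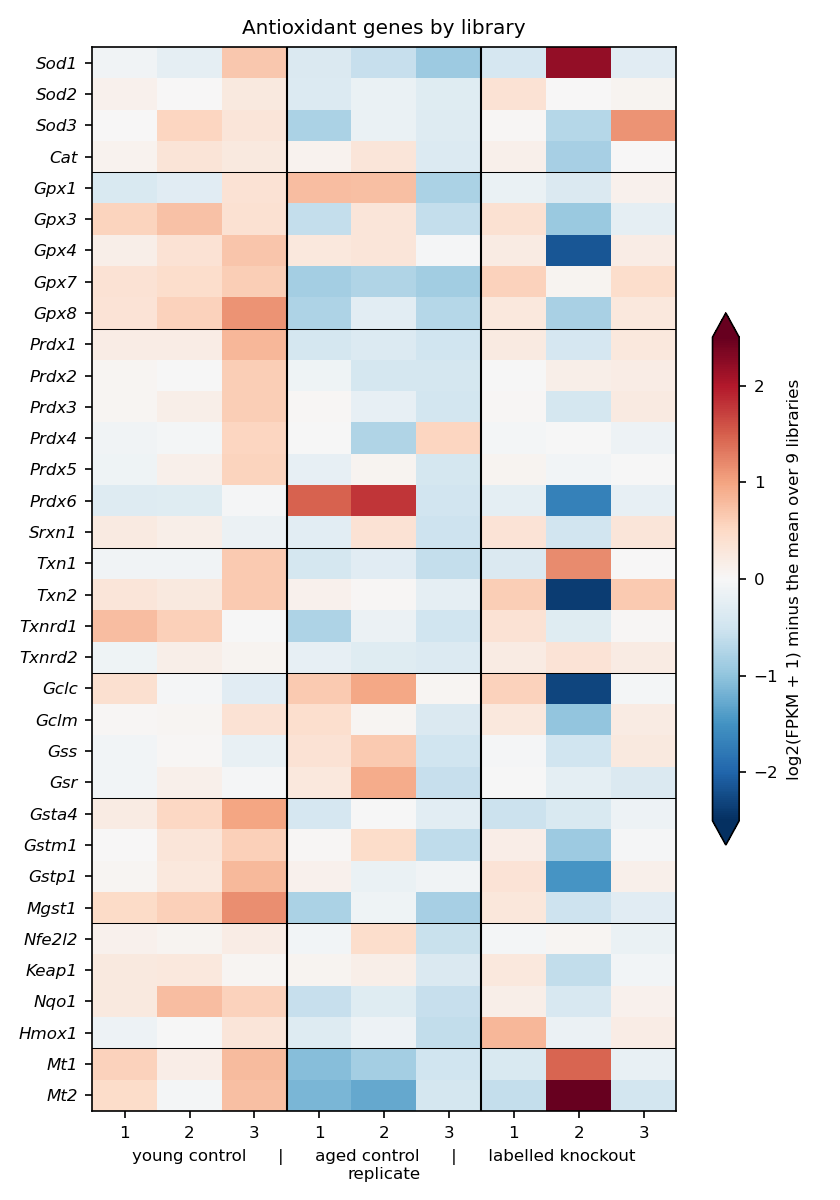
Difference of log2(FPKM + 1) from the gene's mean over the 9 libraries (color, red above and blue below) for the 34 tested genes (rows, by role) in each library (columns, by group and replicate). Labelled-knockout replicate 2 holds the strongest colors of both signs, and young replicate 3 is the highest library for 12 genes.

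Between labelled-knockout and young libraries 0 of the 34 genes passed (limma called 0.00834% of all tested genes higher and 0.0167% lower). At an unadjusted p under 0.05, 3 of the 34 were lower and 0 higher, against 6.52% and 2.11% of all tested genes. The median fold change was -0.27 against -0.16 for all tested genes. Gpx8, Nqo1, Nfe2l2, Gsta4 and Mgst1 were lower in every labelled-knockout than in every young library, 14.7% of the 34 against 13.4% of all tested genes, and Txnrd2 was higher (2.94% against 4.08%). The comparison of labelled-knockout with aged controls had a median of 0.17 against 0.07 for all genes, with 21 positive and 13 negative values, and it shares its aged libraries with the comparison by age.

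The wider pathways were read from lists of further genes, beside which 1.47% of all tested genes passed lower and 2.57% higher with age, and 1.52% higher and 1.96% lower from aged to labelled knockout. Of 30 tested further glutathione genes, 1 passed lower with age and 0 higher: Gstm5, a transferase, was 59.8, 59.2 and 93.0 FPKM in the young and 27.9, 31.5 and 26.3 in the aged libraries (-1.25, limma adjusted p = 0.025). Of 29 tested genes of Nrf2 partners, NADPH supply, haem and iron, 1 passed lower with age and 1 higher in labelled-knockout than in aged libraries, and both calls were Cbr3. Cbr3, a carbonyl reductase, was 30.5, 33.4 and 37.3 FPKM in the young, 14.1, 16.0 and 14.3 in the aged, and 34.4, 32.4 and 31.4 in the labelled-knockout libraries. Like Gpx7, it was low in all 3 aged controls with no overlap (-1.14, adjusted p = 0.0174, and 1.10, adjusted p = 0.0236). Of 25 tested further thioredoxin and selenoprotein genes, 0 passed in either comparison, with 9 lower and 0 higher with age, and 3 higher and 2 lower from aged to labelled knockout at an unadjusted p under 0.05 by limma. The shares of all tested genes at that p were 15.7% and 5.96%, then 12.5% and 7.3%. The age calls of Gstm5 and Cbr3 held in 12 and 14 of 22 alternatives, and with libraries set equal over the stromal markers their fold changes were -0.42 (adjusted p = 0.412) and -0.32 (adjusted p = 0.441). Both were also lost with median-ratio scaling, with and without immunoglobulin genes, and with the replicate block. They were lost too on leaving out any young library or aged replicate 1, and that of Gstm5 also without aged replicate 2 or 3. The second call of Cbr3 held in 13 of 22 alternatives. It was lost with the replicate block, in the fit of the 2 groups alone and with libraries set equal over the stromal markers (0.62, adjusted p = 0.185), and on leaving out young or aged replicate 1 or 2, or labelled-knockout replicate 1 or 3.

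The list of oxidant-producing genes held phagocyte NADPH oxidase subunits, Rac2, myeloperoxidase and further Nox and Duox oxidases, and had calls of the opposite sign. Of its 8 tested genes, 5 passed higher in aged than in young controls, and 3 passed lower in labelled-knockout than in aged libraries, against 2.57% and 1.96% of all tested genes. Cybb, the catalytic phagocyte subunit, did not pass. It was 11.6 to 20.1 FPKM in the young, 14.4 to 24.2 in the aged and 9.82 to 24.95 in the labelled-knockout libraries, with all groups overlapping. Ncf1, a cytosolic oxidase subunit, was 0.88, 1.85 and 2.06 FPKM in the young, 68.3, 101 and 6.61 in the aged, and 0.74, 0.72 and 3.64 in the labelled-knockout libraries (3.89, limma adjusted p = 0.0413, and -3.97, adjusted p = 0.0415). Mpo, the myeloperoxidase of neutrophil granules, was 0.12, 0.30 and 0.03, then 12.6, 4.23 and 13.4, then 0.11, 0.06 and 0.07 FPKM. Aged controls were above all other libraries for both genes. Rac2 is also among the pan-leukocyte markers summed above, and Mpo is on a list of 13 neutrophil markers, so this list is not separate from them. The neutrophil markers summed to 144 to 335 FPKM in the young, 91.2 to 289 in the aged and 74.4 to 295 in the labelled-knockout libraries. Of the 12 tested, 4 had positive and 8 negative fold changes with age, and 2 passed higher, so Mpo does not stand for that list. The age call of Ncf1 was lost on leaving out any young library, aged replicate 1 or 2 or labelled-knockout replicate 3, and its second call on leaving out any library other than aged replicate 3 or labelled-knockout replicate 2. Both calls of Ncf1 were also lost with no filter and with the replicate block, and the second in the fit of the 2 groups. Mpo reached 1 FPKM in the 3 aged controls alone, so it met the filter for testing only through the group where it was high. It had no test with any aged library left out or at a minimum of 5 FPKM. Each of its 2 calls held in 17 of the 18 alternatives that tested it. The age call of Mpo was lost without young replicate 3, and its second call in the fit of the 2 groups alone.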

How the data were processed

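RNA-seq of 9 libraries, 3 a group, was used. Per the file headers, the authors deposited FPKM per gene. Per the submitters' processing notes, FastQC 0.11.5, STAR, edgeR and build GRCm38 were used, with no role stated, whereas annotation, counter and use of strand were not given in the sources used here. Because FPKM is relative to a library's own total, abundant immunoglobulin RNA lowers all other values.

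Groups came from the genotype labels. Group means were fitted to log2(FPKM + 1) with limma 3.58.1 (R 4.3.3), with variances that follow intensity, over genes reaching 1 FPKM in 3 or more libraries. The fit held all 9 libraries and left 6 residual degrees of freedom. The Benjamini-Hochberg adjustment ran across all tested genes, with a threshold of 0.05. Fold changes on this scale understate those of low genes. Every gene of the set could be named. Values in every library were given for genes that passed, for genes with no overlap between aged controls and either other group, and for Nfe2l2, Keap1, Hmox1, Mt1 and Mt2. From other lists the passing genes with the smallest p could be named, at most 4 a list. Cybb was named as an exception, after its values had been seen. The set is defined by symbol alone, but it and the other lists were chosen with earlier results of these data known. The fit was tested on simulated data.

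Depth was estimated from the steps between low FPKM values, with 78.7% to 95.2% of them whole reads within 0.1 at the best step between 8 and 40 M reads (M, mega). For a gene of 2 kb, 3 reads then came to 0.0545 to 0.0843 FPKM, which covers counting error only. Coding windows came from GENCODE M21 and promoters from RefSeq, and shared sequence was counted over stretches of 50 bases. The 22 alternatives varied the pseudocount, filter, scaling, immunoglobulin genes, trend, weights, replicate block, samples in the fit and single libraries.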

Additional observations from a re-analysis of the deposited data

How the results depend on the processing

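By age, 2 genes of the set passed, and 1 did so with no filter on low values, with median-ratio scaling, with immunoglobulin genes left out (under either scaling) and with no intensity trend. The count was 14 (2 higher, 12 lower) with array weights, 8 in the fit of the 2 groups alone, 4 with median-ratio scaling without labelled-knockout replicate 2, and 0 with the replicate block and with libraries set equal over the stromal markers. Leaving out 1 library gave 0 to 9, the most without labelled-knockout replicate 2 and 0 without young replicate 1, 2 or 3 or aged replicate 1. Over all genes 484 passed (308 higher, 176 lower), against 138 with no filter, 5954 with array weights, 120 with the replicate block, 1258 with median-ratio scaling without labelled-knockout replicate 2, 2155 in the fit of the 2 groups and 4 to 2729 on leaving out 1 library. The split moved to 375 higher and 60 lower with median-ratio scaling, 382 and 66 or 347 and 59 with immunoglobulin genes left out, and 652 and 16 with libraries set equal over the stromal markers.

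From aged to labelled knockout, the count of 1 gene became 11 with array weights, 0 with the replicate block, the stromal scaling and the fit of the 2 groups, and 0 to 3 on leaving out 1 library. Over all genes 417 passed (182 higher, 235 lower), against 92 with no filter, 199 at a minimum of 5 FPKM (120 and 79), 3998 with array weights, 64 with the replicate block, 1346 with median-ratio scaling without labelled-knockout replicate 2, 14 in the fit of the 2 groups and 13 to 1895 on leaving out 1 library. The split was 155 higher and 376 lower with median-ratio scaling, 134 and 398 or 157 and 367 with immunoglobulin genes left out, and 56 and 417 with the stromal scaling. The fold change of Txn2, -0.34 with all libraries, ran from -0.85 to 0.67 on leaving out 1 library, and turned positive without labelled-knockout replicate 2. Between labelled-knockout and young libraries no gene of the set passed under any alternative run, and over all genes 3 became 306 with array weights, 38 with median-ratio scaling without labelled-knockout replicate 2 and 2 to 37 on leaving out 1 library. The cause of these shifts was not tested. In each comparison 22 of the 34 fold changes changed sign under at least 1 alternative. The replicate numbers did not pair the libraries: 1 of 9 same-numbered pairs had a correlation of deviations over 0.1 (range -0.29 to 0.30), and 2 of 9 libraries correlated best with their own number.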
